A study of Mus musculus with 16 samples.

Results

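BAF (Brg1- or Brm-associated factor) and PBAF (polybromo-associated BAF) are the mammalian SWI/SNF chromatin remodelling complexes. An ATPase, Smarca4 (Brg1) or Smarca2 (Brm), uses ATP to slide or evict nucleosomes, a scaffold of Smarcc, Smarcd, Smarcb1 and Smarce1 proteins holds the complex together, and most positions can be filled by alternative paralogs. In the mouse, the choice of paralog is known to change as cells differentiate, with Smarcd3 (Baf60c) and Dpf3 (Baf45c) described in heart and muscle and Dpf1 (Baf45b) and Actl6b (Baf53b) in neurons. The 32 genes described here are a fixed list of BAF, PBAF and related SNF2 genes. It holds 28 subunits and the 4 SNF2 ATPases Smarca1, Smarca5, Smarcad1 and Smarcal1, which are not BAF subunits. All 32 were found by Ensembl ID among the 39043 entries of the total RNA table.

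RNA came from 3 kinds of mouse heart cell of strain C57BL/6, given as C57BL/6 J in the methods. The iCMs are cardiomyocytes obtained in vitro, taken at day 14 after cardiospheres of the CSCs were grown with BMP-4, Activin A, basic FGF, Wnt11, Wnt5A and DKK1 (3 libraries). The aCMs are cardiomyocytes from adult hearts, separated after collagenase digestion on a gradient by the labels and by repeated settling by the methods (2 libraries), with cells of 2 hearts pooled per preparation. The mice behind the CSCs and the aCMs were 12 weeks old by the methods, and another passage of the study gives 10 weeks for the aCMs. The CSCs are cultured cardiac stem cells enriched from adult hearts by removing CD45 and CD31 cells and selecting c-kit cells (3 libraries). By the study's text the iCM and CSC libraries are replicates of 1 CSC clone, so p-values measure the spread between these samples and not between clones.

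The libraries held 13417084 to 31155038 estimated counts in iCMs, 11114266 and 14589499 in aCMs and 29868453 to 63238237 in CSCs. All levels are CPM (counts scaled to a library of 1e6) after TMM scaling, which equalizes libraries whose RNA is taken up by a few abundant genes. Every one of 12 cardiomyocyte markers was called higher in iCMs and in aCMs than in CSCs, with summed levels of 18076 to 27551 CPM in iCMs, 167994 to 201452 CPM in aCMs and 53.7 to 121 CPM in CSCs. Other cell types moved with the same groups. All 8 endothelial markers were called higher in both, with sums of 1434 to 1663 CPM in iCMs and 1170 and 1519 CPM in aCMs, against 9.93 to 15.7 CPM in CSCs, as were 9 and 7 of 10 macrophage and leukocyte markers, with sums of 175 to 295 CPM in iCMs and 165 and 299 CPM in aCMs, against 19.8 to 67.9 CPM in CSCs. Fibroblast markers summed to 3018 to 3133 CPM in iCMs and 294 and 457 CPM in aCMs, against 3268 to 4761 CPM in CSCs, and mesothelial markers to 325 to 608 CPM in iCMs and 17.9 and 18.6 CPM in aCMs, against 174 to 211 CPM in CSCs. Most of these CSC sums came from Col1a1 (4409, 3177 and 4607 CPM) and Msln (208, 171 and 187 CPM). Of the 8 fibroblast markers, 6 were called higher and 1 lower in iCMs than in CSCs, and 5 higher and 2 lower in aCMs. Of the 7 mesothelial markers, 6 were called higher and 0 lower in iCMs, and 3 higher and 1 lower in aCMs. The part of these other cell types in the member levels was not tested. In bulk RNA, fewer cells of a type and less RNA per cell cannot be told apart. Kit, the gene of the c-kit receptor used to select CSCs, had 39.6, 45.01 and 43.96 CPM in iCMs and 9.86 and 6.804 CPM in aCMs, against 0.0836, 0.0303 and 0 CPM in CSCs. Its RNA was thus at or near 0 in the CSCs that were sequenced. By the methods, the cells selected for its protein had been expanded and cloned in culture before use. The Y-linked gene Eif2s3y had 33.7, 29.6 and 30.4 CPM in iCMs and 0.263 and 84.8 CPM in aCMs, against 0.117, 0.106 and 0.175 CPM in CSCs, and the X-inactivation RNA Xist 197, 210.4 and 187 CPM in iCMs and 125 and 68.8 CPM in aCMs, against 602, 635 and 562 CPM in CSCs. Y-linked RNA was thus present in every iCM library and near 0 in every CSC library, and it differed between the aCM libraries. Every iCM library held RNA of both Eif2s3y and Xist. Whether the iCM and CSC libraries came from 1 clone was not tested. The animals or cells of origin and the groups cannot be told apart.

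Of the 32 genes, 31 passed the low count filter and were tested with edgeR across 20254 genes. A gene is called where the adjusted p is below 0.05 and the change is at least 2.5-fold. In iCMs vs CSCs, 5 members were called higher (Dpf3, Bcl7a, Bcl11a, Bcl11b and Smarca1), against 21.9% of all tested genes, and 1 was called lower (Dpf1), against 7.01%. In aCMs vs CSCs, 6 were called higher (the same 5 and Smarcd3), against 24.2% of all genes, and 2 lower (Dpf1 and Smarcc1), against 20.4%. The lower calls depended on the scaling, with 12 when library totals replaced TMM, where 6691 of all 20254 genes were called lower. They were 4 without aCMs 1, against 3482 of 21774 genes, and 4 without CSCs 1, against 4045 of 19761. In iCMs vs aCMs, Dpf1 was called higher, against 19.5% of all genes, and Dpf3 lower, against 15.2%. In the main fit, the shares of the 31 members called were all below these backgrounds. They were 16.1% and 3.23%, 19.4% and 6.45%, and 3.23% and 3.23%. With library totals, the share called lower in aCMs vs CSCs was above that of all genes. The 8 called genes lie on chromosomes 12 (Dpf3 and Bcl11b), 5 (Bcl7a and Smarcd3), 11 (Bcl11a), X (Smarca1), 7 (Dpf1) and 9 (Smarcc1). The plot of fold changes shows that the other members lay within 2.5-fold in each comparison.

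**Figure D1:**
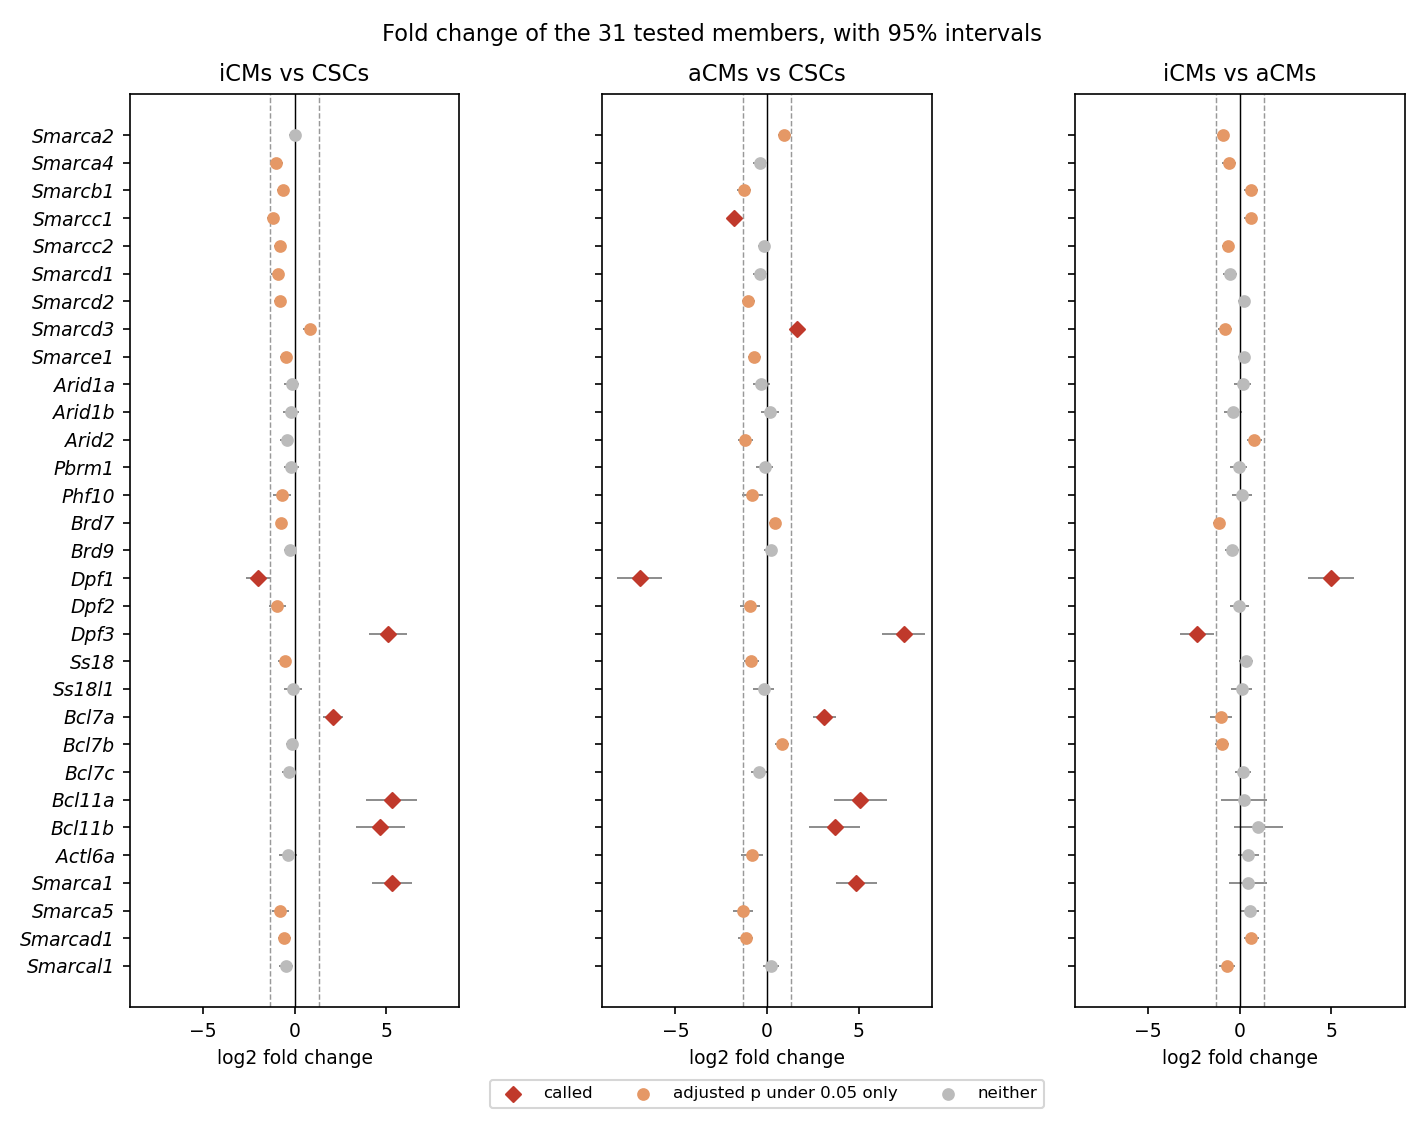
Log2 fold change (x axis) with its 95% interval for each of the 31 tested members (y axis) in iCMs vs CSCs, aCMs vs CSCs and iCMs vs aCMs. Diamonds are called members, orange points pass the adjusted p alone, grey points pass neither, and dashed lines mark 2.5-fold; most members lie between the dashed lines, while Dpf3 at 5.10 in iCMs and 7.44 in aCMs lies far to the right of CSCs.

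By the adjusted p alone, more members were lower than higher in each comparison. In iCMs vs CSCs, 6 members were higher and 14 lower, against 26.4% and 21.9% of all genes. Those 14 made up 45.2% of the tested members. In aCMs vs CSCs, 9 were higher and 12 lower, against 29.3% and 29.4% of all genes. In iCMs vs aCMs, 5 were higher and 9 lower, against 26.3% and 22.6%. The median log2 fold change of the members was -0.41 in iCMs vs CSCs, -0.32 in aCMs vs CSCs and 0.12 in iCMs vs aCMs, while the median of all genes was -0.02, -0.10 and 0.19, so in iCMs vs aCMs the median of the members and the balance of their counts differed in sign. With library totals that median was 0.83, with 6 of 31 members below 0, where 14 were below 0 with TMM. Without a test, all libraries of iCMs lay above all of CSCs for 6 tested members (30.4% of all genes) and below for 15 (27.5%). The same held for 9 (34.8%) and 15 (37.4%) in aCMs vs CSCs, and for 11 (40.8%) and 12 (33%) in iCMs vs aCMs. The 28 subunits summed to 1174, 1298 and 1186 CPM in iCMs and 1479 and 1408 CPM in aCMs, against 1690, 1950 and 1680 CPM in CSCs. With TMM, their sums did not overlap between iCMs, aCMs and CSCs. The place of the aCM sums relative to the iCM sums depends on TMM, whose factors were 0.685 and 0.716 in aCMs and 1.12 to 1.19 in iCMs.

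The Smarcd proteins (Baf60) link the complex to transcription factors, and a complex holds 1 of the 3 paralogs. Mouse Smarcd3 is needed for heart development and acts with Gata4, Tbx5 and Nkx2-5. Smarcd3 had 40.6, 39.4 and 45.95 CPM in iCMs and 75.3 and 70.9 CPM in aCMs, against 22.01, 20.1 and 28.6 CPM in CSCs. The libraries of each group lay apart, highest in aCMs, intermediate in iCMs and lowest in CSCs. In aCMs vs CSCs Smarcd3 rose 3.10-fold (log2 fold change 1.63 ± 0.20 SE, adjusted p = 5.78e-05). With library totals in place of TMM it was 0.96, under the fold threshold, where the median of all genes also moved to -0.76, from -0.10. In iCMs vs CSCs the level was 1.78-fold higher, which passed the adjusted p but not the fold threshold (log2 fold change 0.83 ± 0.18 SE, adjusted p = 0.00398). Smarcd3 was lower in iCMs than in aCMs (log2 fold change -0.80 ± 0.20 SE, adjusted p = 0.00822), again under the fold threshold.

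The other paralogs were highest in CSCs. Smarcd1, the Baf60a paralog, had 40.3, 44.4 and 40.3 CPM in iCMs and 63.2 and 56.2 CPM in aCMs, against 79.9, 92.8 and 64.2 CPM in CSCs. Its iCM and aCM libraries were all below the lowest CSC library, although aCMs 1 came close to it. Smarcd1 was lower in iCMs than in CSCs (log2 fold change -0.92 ± 0.18 SE, adjusted p = 0.00184), and in aCMs vs CSCs the difference did not pass (log2 fold change -0.40 ± 0.20 SE, adjusted p = 0.106). Smarcd2, the Baf60b paralog known from mouse and human granulocyte development, had 74.5, 75.4 and 78.5 CPM in iCMs and 70.2 and 59.8 CPM in aCMs, against 139, 114 and 142 CPM in CSCs. Every CSC library was above every iCM and aCM library. The log2 fold changes were -0.79 ± 0.16 SE in iCMs vs CSCs (adjusted p = 0.00226) and -1.02 ± 0.18 SE in aCMs vs CSCs (adjusted p = 7.34e-04). In iCMs vs aCMs Smarcd2 was at 0.23 ± 0.18 SE (95% interval -0.12 to 0.58, adjusted p = 0.311).

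**Figure D2:**
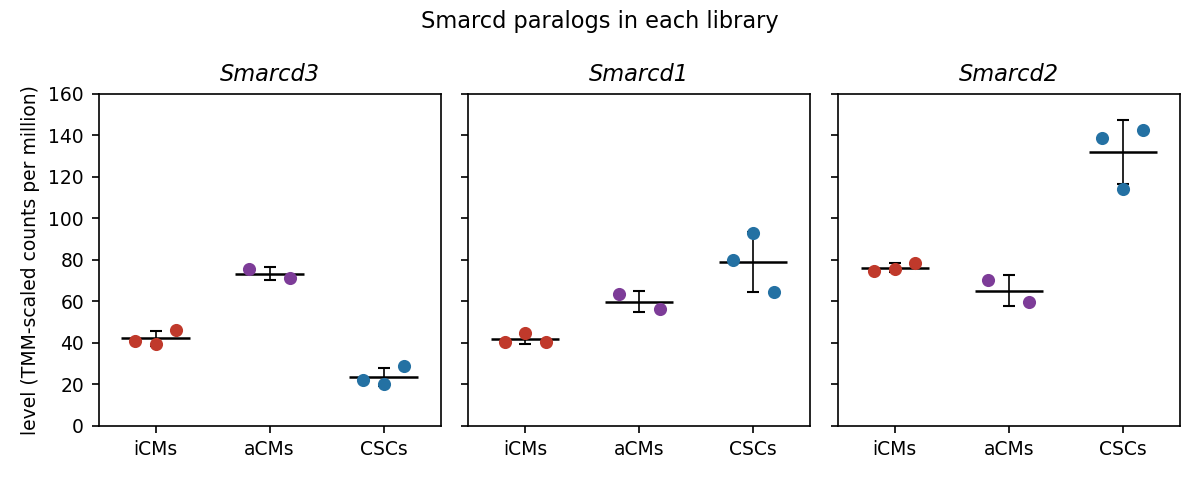
Level of Smarcd3, Smarcd1 and Smarcd2 in CPM (y axis) in each library (points) of iCMs, aCMs and CSCs, with the group mean (line) and SD (bar). Smarcd3 is highest in aCMs at 75.3 and 70.9 CPM and lowest in CSCs, while Smarcd1 and Smarcd2 are highest in CSCs.

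As a share of the counts of the 3 Smarcd genes, Smarcd3 made up 24.8% to 27.9% in iCMs and 36.1% to 37.9% in aCMs, against 8.86% to 12.2% in CSCs. The shares are not scaled for gene length and are compared between groups only. Smarcd2 made up 47.4% to 47.9% in iCMs and 32% to 33.6% in aCMs, against 50.2% to 60.5% in CSCs. Smarcd1 made up 24.5% to 27.9% in iCMs and 30.1% to 30.3% in aCMs, against 27.3% to 40.9% in CSCs, so its ranges in iCMs and in aCMs overlapped that in CSCs. The summed level of the 3 genes was 155 to 165 CPM in iCMs and 187 to 209 CPM in aCMs, against 227 to 241 CPM in CSCs.

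A ratio of 2 paralogs within a library does not depend on how that library was scaled, apart from a pseudocount of 1 CPM. The log2 ratio of Smarcd3 to Smarcd2 was -0.86, -0.92 and -0.76 in iCMs and 0.10 and 0.24 in aCMs, against -2.60, -2.45 and -2.28 in CSCs. No library of one group reached the range of another. The difference was 1.60 in iCMs vs CSCs (exact permutation p = 0.1, adjusted p = 0.133), 2.61 in aCMs vs CSCs (exact permutation p = 0.2, adjusted p = 0.229) and -1.02 in iCMs vs aCMs (exact permutation p = 0.2, adjusted p = 0.267). The log2 ratio of Smarcd3 to Smarcd1 was 0.01, -0.17 and 0.19 in iCMs and 0.25 and 0.33 in aCMs, against -1.81, -2.15 and -1.14 in CSCs. It was higher by 1.71 in iCMs and by 1.99 in aCMs than in CSCs, with the same p-values. For these two-sided tests 0.1 is the smallest p that 3 against 3 libraries can give and 0.2 the smallest for 3 against 2, so no ratio could pass 0.05, and the p-values were adjusted over 16 pairs in each comparison.

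The promoters of the 3 Smarcd genes are shown because Smarcd3 was higher, and Smarcd1 and Smarcd2 lower, in iCMs than in CSCs. They are the 250 bases before the start that RefSeq gives on GRCm38.p6, read 5′ to 3′ on the strand of the gene, at chr5:24602003-24602252, minus strand for Smarcd3, chr15:99702037-99702286, plus strand for Smarcd1 and chr11:106267633-106267882, minus strand for Smarcd2. The Smarcd3 and Smarcd2 starts are each 1 of several, since these minus-strand genes extend to bases 24624456 and 106272998, so the windows of both lie inside the genes. Capitals mark matches on either strand to CAGCTG (an E-box), CATTCC (the TEAD motif), AGGTGT (a T-box core), TTTCCCGC (an E2F motif) and CCAAT.
Smarcd3: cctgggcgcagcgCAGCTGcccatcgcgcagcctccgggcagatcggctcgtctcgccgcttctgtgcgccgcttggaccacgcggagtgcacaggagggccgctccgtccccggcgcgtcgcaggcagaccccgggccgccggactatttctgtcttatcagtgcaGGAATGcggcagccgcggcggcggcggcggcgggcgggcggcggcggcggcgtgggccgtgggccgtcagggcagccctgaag
Smarcd1: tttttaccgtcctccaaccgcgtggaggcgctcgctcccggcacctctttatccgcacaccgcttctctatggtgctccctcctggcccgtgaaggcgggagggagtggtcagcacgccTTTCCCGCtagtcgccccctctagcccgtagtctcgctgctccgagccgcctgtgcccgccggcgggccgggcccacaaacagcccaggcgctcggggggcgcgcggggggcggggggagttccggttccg
Smarcd2: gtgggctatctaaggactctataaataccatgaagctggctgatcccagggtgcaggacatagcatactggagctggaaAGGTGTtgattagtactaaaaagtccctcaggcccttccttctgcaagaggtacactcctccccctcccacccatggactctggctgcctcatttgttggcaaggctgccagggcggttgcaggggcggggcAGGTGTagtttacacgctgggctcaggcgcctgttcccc
Smarcd3 held CAGCTG at -237 to -232 and CATTCC on the opposite strand at -83 to -78, motifs found in 13.0% and 12.6% of 32851 promoters of this length. Smarcd1 held TTTCCCGC at -131 to -124, found in 0.895% of promoters and also before Arid1a and Brd7, that is in 3 of the 28 members with a promoter in the table. Smarcd2 held AGGTGT at -171 to -166 and -39 to -34, found in 11.8%. Smarcd3 and Smarcd1 held 38 and 29 CpG dinucleotides and Smarcd2 held 4, where the median of all promoters was 6 and that of the 31 entries of those 28 members was 25. AGATAA, a form of the GATA motif found in 9.99% of all promoters, and a MEF2 motif, in 3.202%, matched no member. Other forms of the GATA motif were not searched. The Smarcd3 sequence above holds ttatca, which reads TGATAA, such a form, on the opposite strand. These are matches of letters and were not tested as binding sites.

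The heart factors that act with Smarcd3 in the mouse were measured beside it. Tbx5 had 22.5, 29.4 and 20.7 CPM in iCMs and 46.5 and 41.8 CPM in aCMs, against 0.1004, 0.0758 and 0.0585 CPM in CSCs, Nkx2-5 had 44.99, 62.5 and 66.6 CPM in iCMs and 149 and 196 CPM in aCMs, against 2.56, 0.758 and 0.672 CPM in CSCs, and Gata4 had 56.2, 58.9 and 55.1 CPM in iCMs and 152 and 121 CPM in aCMs, against 21.96, 31.4 and 16.6 CPM in CSCs. All were called higher in aCMs than in CSCs, and Tbx5 and Nkx2-5 also in iCMs, where Gata4 was higher by 1.282 ± 0.23 SE on the log2 scale (adjusted p = 0.00119), under the fold threshold. Like Smarcd3, each had every aCM library above every iCM library and every iCM library above every CSC library.

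The Dpf proteins (Baf45) carry paired PHD fingers that read modified histone H3. In aCMs vs CSCs they held both the largest rise and the deepest fall among the members. Dpf3, described in mouse heart and somites, had 5.69, 7.33 and 4.92 CPM in iCMs and 31.02 and 29.7 CPM in aCMs, against 0.0335, 0.258 and 0.234 CPM in CSCs. CSC libraries held 2, 17 and 8 counts of it. From the summed counts, the level was 36.2-fold that of CSCs in iCMs (95% counting interval 24.5 to 55.5) and 179-fold in aCMs (122 to 275). The fitted log2 fold changes were 5.10 ± 0.53 SE in iCMs vs CSCs (adjusted p = 3.17e-05), 7.44 ± 0.59 SE in aCMs vs CSCs (adjusted p = 2.02e-06) and -2.34 ± 0.47 SE in iCMs vs aCMs (adjusted p = 0.00222). Dpf3 was thus 5.06-fold lower in iCMs than in aCMs.

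Dpf1 went the other way. This paralog, described in mouse neurons, had 3.85, 3.09 and 3.72 CPM in iCMs and 0 and 0.192 CPM in aCMs, against 12.5, 15.4 and 13.9 CPM in CSCs. No aCM library overlapped another group, and aCMs 1 and 2 held 0 and 2 counts, where 0 counts allow up to 0.394 CPM. In iCMs vs CSCs Dpf1 fell 3.91-fold (log2 fold change -1.97 ± 0.34 SE, adjusted p = 9.11e-04). From summed counts, the iCM level was 32.2-fold the aCM level (95% counting interval 8.83 to 267), and the aCM level was 0.00793 of the CSC level (0.000959 to 0.0287). Both aCM comparisons were called (adjusted p = 1.29e-04 for iCMs vs aCMs and 5.50e-06 for aCMs vs CSCs). The 13 neural markers summed to 48.3 to 52.7 CPM in iCMs and 22.6 and 35.9 CPM in aCMs, against 49.7 to 84.6 CPM in CSCs. Most of the CSC sum came from Map2 (31.1, 59.5 and 54.3 CPM) and Prph (15.8, 8.26 and 26.3 CPM). Of the 10 tested, 6 were called higher and 1 lower in iCMs than in CSCs, and 5 higher and 2 lower in aCMs. The part of cells with neural markers in the level of Dpf1 was not tested.

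Dpf2, the widely expressed paralog, had 59.4, 59.8 and 57.99 CPM in iCMs and 60.5 and 59.1 CPM in aCMs, against 123, 145 and 70.03 CPM in CSCs. The CSC libraries were above the others but spread over a wide range, and CSCs 3 came close to the iCM and aCM levels. Dpf2 was lower in iCMs (log2 fold change -0.94 ± 0.24 SE, adjusted p = 0.00871) and in aCMs (log2 fold change -0.92 ± 0.27 SE, adjusted p = 0.0147) than in CSCs, under the fold threshold. As shares of the counts of the 3 Dpf genes, Dpf3 made up 7.39% to 10.4% in iCMs and 33.4% to 33.9% in aCMs, against 0.0246% to 0.278% in CSCs, while Dpf1 made up 4.41% to 5.59% in iCMs and 0% to 0.215% in aCMs, against 9.19% to 16.5% in CSCs. In iCMs both minor paralogs were thus present, at levels between those of aCMs and CSCs. The Dpf3 promoter, chr12:83487737-83487986, minus strand of GRCm38.p6, is shown because Dpf3 had that largest rise; CCAAT, in capitals on either strand, occurred 3 times in it.
Dpf3: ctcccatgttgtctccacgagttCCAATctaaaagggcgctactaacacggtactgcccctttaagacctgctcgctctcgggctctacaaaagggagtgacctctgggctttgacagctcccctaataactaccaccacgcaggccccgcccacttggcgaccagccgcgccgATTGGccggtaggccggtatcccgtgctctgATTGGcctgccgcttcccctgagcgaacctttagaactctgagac
CCAAT was found in 33.8% of all promoters and in 7 of the 28 members with a promoter in the table, among them Dpf1 and Dpf2.

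**Figure D3:**
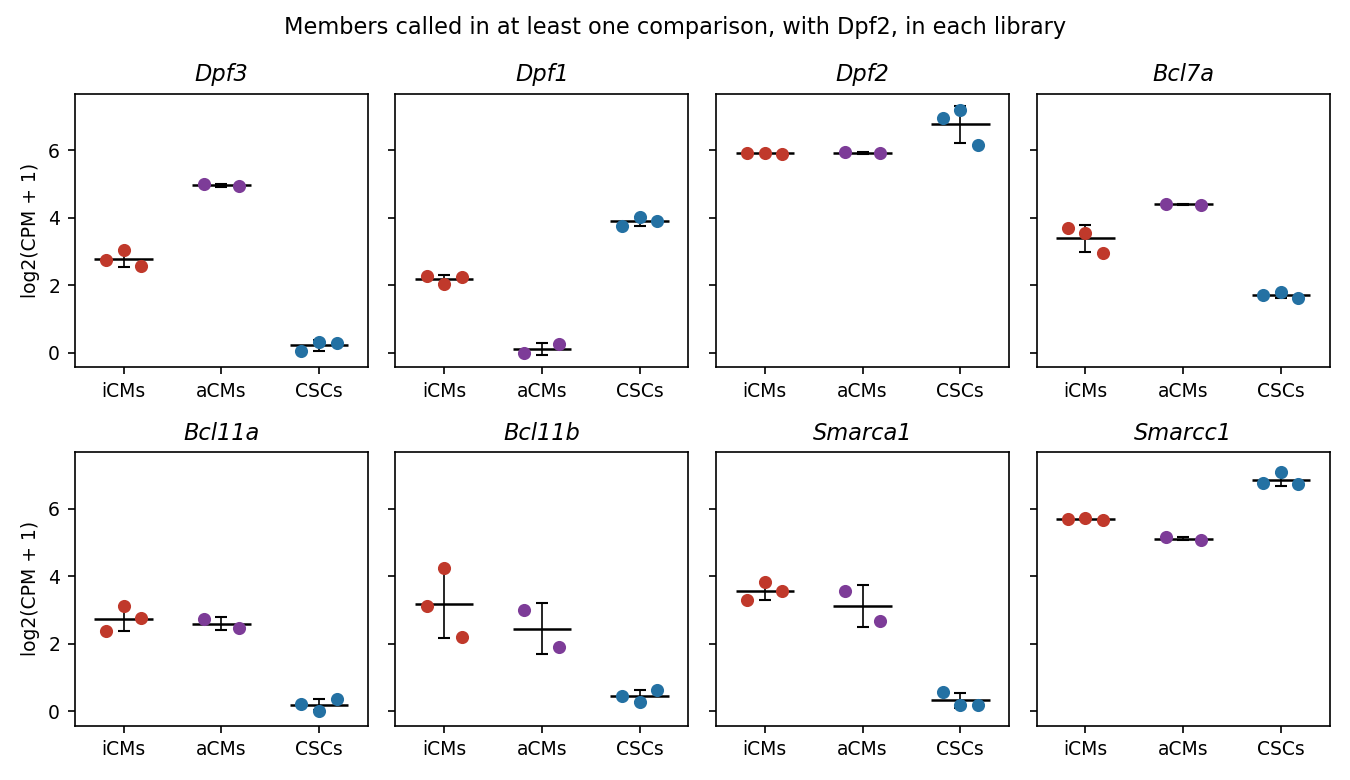
Level as log2(CPM + 1) (y axis) of the called members other than Smarcd3, with Dpf2 for comparison, in each library (points) of iCMs, aCMs and CSCs, with the group mean (line) and SD (bar). Dpf3, Bcl7a, Bcl11a, Bcl11b and Smarca1 are lowest in CSCs, Dpf1 and Smarcc1 are highest there, and Bcl11b differs widely among the iCM libraries.

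Bcl7a, 1 of 3 Bcl7 subunits, had 12.05, 10.6 and 6.72 CPM in iCMs and 20.2 and 19.9 CPM in aCMs, against 2.29, 2.49 and 2.11 CPM in CSCs. The 3 groups lay apart. Bcl7a rose 4.28-fold in iCMs (log2 fold change 2.10 ± 0.29 SE, adjusted p = 2.16e-04) and 8.73-fold in aCMs (log2 fold change 3.13 ± 0.31 SE, adjusted p = 1.25e-05) relative to CSCs. Between iCMs and aCMs the log2 fold change was -1.03 ± 0.30 SE (adjusted p = 0.0176), under the fold threshold, with iCMs 3 the lowest of the iCM libraries. Bcl7b averaged 37.2 ± 3.33 CPM in iCMs and 71.9 ± 5.35 CPM in aCMs, against 40.7 ± 5.78 CPM in CSCs (SD, n = 3, 2 and 3), and passed the adjusted p as higher in aCMs than in CSCs (log2 fold change 0.82 ± 0.19 SE, adjusted p = 0.00388). The size of that difference depends on the scaling, as for Smarcd3. Bcl7c averaged 36.04 ± 2.59 CPM in iCMs and 32.2 ± 0.321 CPM in aCMs, against 43.9 ± 10.7 CPM in CSCs (same n), and passed no comparison. The share of Bcl7a among the Bcl7 counts was 8.54% to 14.9% in iCMs and 15.8% to 16.6% in aCMs, against 2.28% to 2.93% in CSCs.

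Bcl11a and Bcl11b are zinc finger proteins that bind DNA and copurify with BAF. In mouse and human blood, Bcl11a acts in B cells and erythroid cells and Bcl11b in T cells. Bcl11a had 4.205, 7.66 and 5.79 CPM in iCMs and 5.65 and 4.504 CPM in aCMs, against 0.167, 0.0152 and 0.292 CPM in CSCs. CSCs held 21 counts in all, and iCM and aCM libraries overlapped each other but not CSCs. The log2 fold changes were 5.30 ± 0.71 SE in iCMs vs CSCs (adjusted p = 1.82e-04), 5.09 ± 0.74 SE in aCMs vs CSCs (adjusted p = 1.78e-04) and 0.21 ± 0.65 SE in iCMs vs aCMs (adjusted p = 0.803).

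Bcl11b had 7.65, 17.9 and 3.59 CPM in iCMs and 6.97 and 2.78 CPM in aCMs, against 0.385, 0.212 and 0.556 CPM in CSCs. Its spread within iCMs was wide, with iCMs 2 at 17.9 CPM and iCMs 3 at 3.59 CPM, inside the range of the aCM libraries. It rose by 4.69 ± 0.69 SE (log2) in iCMs and by 3.68 ± 0.72 SE in aCMs relative to CSCs (adjusted p = 3.82e-04 and 0.00137). Lymphocyte markers were also higher in iCMs and aCMs than in CSCs. The 10 lymphocyte markers summed to 83.0, 178 and 39.0 CPM in iCMs and 10.3 and 8.43 CPM in aCMs, against 1.71 to 2.31 CPM in CSCs. Of the 9 tested, 9 were called higher in iCMs and 4 in aCMs than in CSCs, and no marker of the list was at 0 in all iCM libraries. In iCMs vs aCMs, 6 of the 9 were called higher, while Bcl11b was not called (log2 fold change 1.01 ± 0.69 SE, adjusted p = 0.248). Cd3e, a chain of the T cell receptor complex, had 15.6, 31.01 and 3.46 CPM in iCMs and 0.789 and 0 CPM in aCMs, against 0.0335, 0.0152 and 0 CPM in CSCs, in the same order of the 3 iCM libraries as Bcl11b. The 9 erythroid markers, in another order, summed to 5772, 23723 and 24200 CPM in iCMs and 21.8 and 42.8 CPM in aCMs, against 2.38 to 7.13 CPM in CSCs, and the macrophage and leukocyte markers to 175, 226 and 295 CPM in iCMs, both highest in iCMs 3, where Bcl11b was lowest. The part of these cells in the Bcl11a and Bcl11b levels was not tested.

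The ATPases of BAF passed in different comparisons with CSCs. Smarca4 had 71.99, 89.9 and 71.02 CPM in iCMs and 123 and 112 CPM in aCMs, against 136, 183 and 145 CPM in CSCs. Every iCM and aCM library was below every CSC library. The log2 fold change was -0.997 ± 0.18 SE in iCMs vs CSCs (adjusted p = 0.00113), and in aCMs vs CSCs it did not pass (log2 fold change -0.40 ± 0.20 SE, adjusted p = 0.108). In iCMs vs aCMs Smarca4 was lower (log2 fold change -0.60 ± 0.19 SE, adjusted p = 0.0272), which turned to 0.11 with library totals. Smarca2 had 49.7, 54.1 and 59.1 CPM in iCMs and 107 and 98.2 CPM in aCMs, against 52.3, 48.7 and 59.7 CPM in CSCs. The iCM and CSC libraries overlapped, with a log2 fold change of 0.019 ± 0.16 SE (95% interval -0.29 to 0.33), and the aCM level stood apart from both, at 0.93 ± 0.18 SE in aCMs vs CSCs (adjusted p = 9.94e-04) and -0.92 ± 0.18 SE in iCMs vs aCMs (adjusted p = 0.00171). None of these reached 2.5-fold. The size of the aCM differences depends on the scaling. Library totals moved the median of all genes to -0.76 in aCMs vs CSCs and 0.89 in iCMs vs aCMs. The log2 ratio of Smarca2 to Smarca4 was -0.52, -0.72 and -0.26 in iCMs and -0.20 and -0.19 in aCMs, against -1.37, -1.89 and -1.27 in CSCs, with no overlap between groups. It was higher by 1.00 in iCMs than in CSCs (exact permutation p = 0.1, adjusted p = 0.133) and by 1.31 in aCMs than in CSCs (exact permutation p = 0.2, adjusted p = 0.229).

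Smarcc1 (Baf155) and Smarcc2 (Baf170) form the dimer on which the core is built. Smarcc1 had 51.02, 52.2 and 50.3 CPM in iCMs and 34.6 and 32.9 CPM in aCMs, against 108, 137 and 106 CPM in CSCs. The groups lay apart, and Smarcc1 fell 3.46-fold in aCMs relative to CSCs (log2 fold change -1.79 ± 0.19 SE, adjusted p = 2.00e-05). It was 2.28-fold lower in iCMs than in CSCs (log2 fold change -1.19 ± 0.16 SE, adjusted p = 2.06e-04), just under the fold threshold. Smarcc2 averaged 70.9 ± 2.33 CPM in iCMs and 110.5 ± 2.88 CPM in aCMs, against 125 ± 14.4 CPM in CSCs (SD, n = 3, 2 and 3). It was lower in iCMs (log2 fold change -0.82 ± 0.15 SE, adjusted p = 0.00153), and its aCM and CSC libraries overlapped. The log2 ratio of Smarcc2 to Smarcc1 was 0.46, 0.39 and 0.54 in iCMs and 1.62 and 1.74 in aCMs, against 0.31, -0.33 and 0.32 in CSCs, and thus separated aCMs from both other groups by more than it separated iCMs from CSCs.

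**Figure D4:**
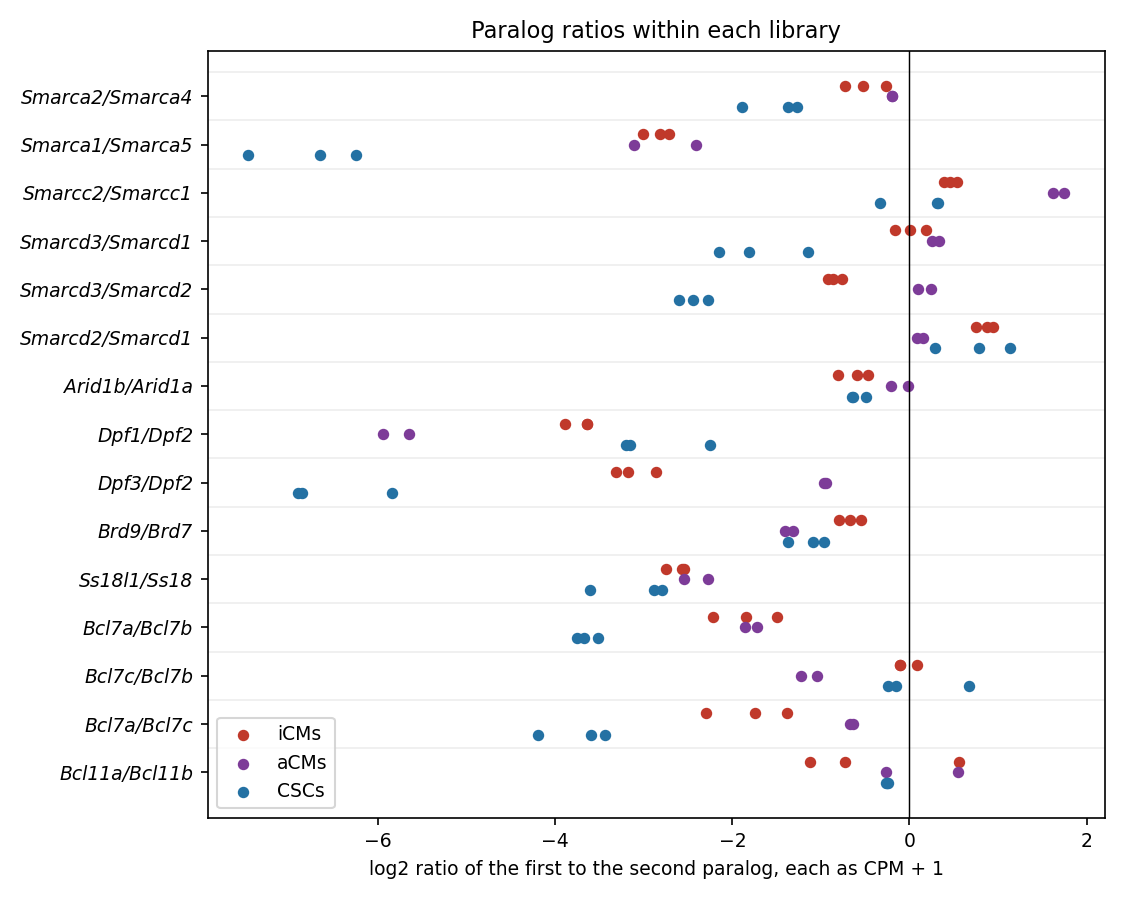
Log2 ratio of the first to the second paralog, each as CPM + 1 (x axis), for 15 pairs (y axis) in each library (points) of iCMs, aCMs and CSCs; Actl6b/Actl6a is left out because Actl6b was near 0. The Smarcd3, Dpf3, Smarca2 and Bcl7a ratios of iCMs and aCMs lie to the right of those of CSCs, and the Dpf1/Dpf2 ratio lies to the left.

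Over the 15 pairs without Actl6b/Actl6a, the ratio in iCMs was above all CSC libraries for 10 pairs, below all for 1 (Dpf1/Dpf2), and overlapped for 4. In aCMs it was above all CSC libraries for 10, below for 3 and overlapped for 2. In iCMs vs aCMs, 4 ratios were above, 7 below and 4 overlapped. The 3 ratios below CSCs in aCMs were Dpf1/Dpf2, Smarcd2/Smarcd1 and Bcl7c/Bcl7b. The pairs share genes and are not independent of each other. Which paralog stands first in a pair was a choice, and swapping the 2 swaps above and below. No background over other gene pairs was computed. Among single genes, 30.4% lay above and 27.5% below in iCMs vs CSCs without overlap.

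The remaining core subunits were lower in both kinds of cardiomyocyte. Smarcb1 (Baf47) averaged 58.9 ± 3.84 CPM in iCMs and 38.5 ± 0.607 CPM in aCMs, against 91.8 ± 15.4 CPM in CSCs. Smarce1 (Baf57) averaged 102 ± 7.75 CPM in iCMs and 87.9 ± 13.2 CPM in aCMs, against 143 ± 5.71 CPM in CSCs (SD, n = 3, 2 and 3 for both). The 2 genes passed the adjusted p in iCMs vs CSCs (log2 fold change -0.64 ± 0.17 SE and -0.49 ± 0.15 SE) and in aCMs vs CSCs (-1.25 ± 0.20 SE and -0.71 ± 0.18 SE), under the fold threshold.

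Among the ARID subunits and those of PBAF and noncanonical BAF, none reached 2.5-fold. Arid1a and Arid1b, the ARID subunits of canonical BAF, and Pbrm1, the polybromo subunit of PBAF, passed no comparison, with log2 fold changes between -0.36 and 0.17. Arid2, the ARID subunit of PBAF, averaged 54.7 ± 7.54 CPM in iCMs and 31.8 ± 0.168 CPM in aCMs, against 72.8 ± 11.9 CPM in CSCs, and was lower in aCMs (log2 fold change -1.20 ± 0.21 SE, adjusted p = 6.99e-04). Brd7, the bromodomain subunit of PBAF, averaged 70.9 ± 2.61 CPM in iCMs and 154 ± 1.65 CPM in aCMs, against 116 ± 9.82 CPM in CSCs. It was lower in iCMs than in CSCs (log2 fold change -0.71 ± 0.15 SE, adjusted p = 0.00267) and than in aCMs (log2 fold change -1.12 ± 0.16 SE, adjusted p = 2.75e-04), and higher in aCMs than in CSCs (log2 fold change 0.41 ± 0.16 SE, adjusted p = 0.0496), which turned to -0.26 with library totals. Brd9, which marks noncanonical BAF, passed no comparison. Phf10 (Baf45a) was lower in iCMs (log2 fold change -0.68 ± 0.25 SE, adjusted p = 0.0476) and in aCMs (log2 fold change -0.80 ± 0.29 SE, adjusted p = 0.0364) than in CSCs, with CSCs 2 at 136 CPM against 66.4 and 72.4 CPM in the other CSC libraries.

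Actl6a and Actl6b are actin-like subunits, and mouse neurons switch from the first to the second. Actl6b was at the limit of detection, with 10 counts over the iCM libraries, 0 over the aCM libraries and 7 over the CSC libraries, and was not tested. Actl6a had 33.4, 31.97 and 32.5 CPM in iCMs and 26.4 and 21.2 CPM in aCMs, against 35.1, 60.5 and 29.9 CPM in CSCs. It was lower in aCMs than in CSCs (log2 fold change -0.82 ± 0.30 SE, adjusted p = 0.0367) and did not pass in iCMs vs CSCs (log2 fold change -0.36 ± 0.26 SE, adjusted p = 0.272). The 10 proliferation genes, summed, were also highest in CSCs 2, with 294, 447 and 183 CPM in iCMs and 33.3 and 30.4 CPM in aCMs, against 167, 2081 and 954 CPM in CSCs 1, 2 and 3. Without CSCs 2 the Actl6a log2 fold change in iCMs vs CSCs was 0.0083, and the part of proliferation in the Actl6a and Phf10 levels was not tested.

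Ss18 and Ss18l1 (Crest) are alternative subunits next to the ATPase, the second known from mouse neurons. Ss18 had 61.6, 74.5 and 58.7 CPM in iCMs and 50.9 and 53.00 CPM in aCMs, against 94.02, 109 and 80.3 CPM in CSCs. All CSC libraries were above the others, and Ss18 was lower in iCMs (log2 fold change -0.54 ± 0.17 SE, adjusted p = 0.0261) and in aCMs (log2 fold change -0.86 ± 0.20 SE, adjusted p = 0.00378) under the fold threshold. Ss18l1 had 9.51, 10.2 and 9.24 CPM in iCMs and 9.73 and 8.24 CPM in aCMs, against 12.7, 7.97 and 10.000 CPM in CSCs, with overlapping groups and no comparison passed.

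Of the 4 SNF2 ATPases outside BAF, Smarca1 stood apart. Smarca1 (Snf2l) and Smarca5 (Snf2h) are the alternative motors of the ISWI remodellers. The X-linked Smarca1 had 8.89, 13.1 and 10.8 CPM in iCMs and 10.8 and 5.37 CPM in aCMs, against 0.502, 0.152 and 0.146 CPM in CSCs. It rose by 5.30 ± 0.56 SE (log2) in iCMs and by 4.86 ± 0.57 SE in aCMs relative to CSCs (adjusted p = 3.23e-05 and 3.96e-05), and iCMs and aCMs overlapped. Smarca5 averaged 84.2 ± 7.04 CPM in iCMs and 57.8 ± 5.44 CPM in aCMs, against 143 ± 51.2 CPM in CSCs (SD, n = 3, 2 and 3), with the highest value, 202 CPM, in CSCs 2. It was lower in iCMs (log2 fold change -0.77 ± 0.23 SE, adjusted p = 0.0199) and 2.48-fold lower in aCMs (log2 fold change -1.31 ± 0.27 SE, adjusted p = 0.00191), just under the fold threshold. It was called there in 7 of the 16 settings of the fit, and without CSCs 2 the log2 fold change was -0.97. Smarcad1, which helps keep heterochromatin, was lower in iCMs and aCMs than in CSCs (-0.55 ± 0.18 SE and -1.18 ± 0.22 SE, adjusted p = 0.0302 and 8.85e-04). Smarcal1, which anneals DNA at stalled forks, was lower in iCMs than in aCMs (log2 fold change -0.69 ± 0.22 SE, adjusted p = 0.0237), at 0.017 with library totals, and passed neither comparison with CSCs.

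Genes of the other remodelling families were set beside the members. Of 18 CHD and NuRD genes, 1 was called higher and 2 lower in iCMs vs CSCs, and 1 higher and 3 lower in aCMs vs CSCs. Chd3 had 99.8, 89.2 and 96.8 CPM in iCMs and 18.8 and 24.4 CPM in aCMs, against 406, 242 and 260.2 CPM in CSCs and Chd5 4.29, 2.58 and 3.92 CPM in iCMs and 0.263 and 0.767 CPM in aCMs, against 8.35, 11.3 and 9.68 CPM in CSCs, both called lower in iCMs and aCMs. Chd7, needed for heart development in the mouse, had 32.9, 34.5 and 29.9 CPM in iCMs and 26.5 and 38.4 CPM in aCMs, against 3.68, 9.83 and 7.78 CPM in CSCs and was called higher in both. Of 9 ISWI partners, 1 was called higher in iCMs vs CSCs, and 1 higher and 3 lower in aCMs vs CSCs. The riser was Cecr2, with 2.64, 4.57 and 3.92 CPM in iCMs and 17.3 and 17.3 CPM in aCMs, against 0.435, 0.561 and 0.3801 CPM in CSCs. Of 18 INO80, SRCAP and TIP60 genes, edgeR called 0 in iCMs vs CSCs, with 12 at an unadjusted p below 0.05 and 0 called by DESeq2, and called 4 lower in aCMs vs CSCs. Of all genes, 21.9% were called higher and 7.01% lower in iCMs vs CSCs, and 24.2% and 20.4% in aCMs vs CSCs. The median log2 fold changes of these 3 lists were -0.36, -0.21 and -0.59 in iCMs vs CSCs, on the same side of 0 as the -0.41 of the members. In aCMs vs CSCs they were -0.76, -0.67 and -0.89, against -0.32 for the members.

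MicroRNAs known to act on these genes were read from the small RNA libraries of the same groups. In mouse neurons miR-9-3p and miR-124-3p repress Actl6a, and in human and mouse cells the miR-99 family represses Smarca5 and Smarcd1. The sequences are shown because the 3 miR-99 members share a seed (bases 2 to 8, in capitals, RefSeq, GRCm38.p6) and differed in direction.
mmu-miR-99a-5p: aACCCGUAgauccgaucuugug
mmu-miR-99b-5p: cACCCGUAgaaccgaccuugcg
mmu-miR-100-5p: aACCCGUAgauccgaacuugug
mmu-miR-9-3p: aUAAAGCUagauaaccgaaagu
They are encoded on chromosome 16 (miR-99a-5p), 17 (miR-99b-5p), 9 (miR-100-5p), and 3, 7 and 13 (miR-9-3p). Calls over the 718 tested miRNAs need an adjusted p below 0.05 with a log2 difference of 0.6 or more.

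The level of mmu-miR-99a-5p was 1064, 1063 and 936 CPM in iCMs and 1620.2 and 1479 CPM in aCMs, against 223, 138 and 242 CPM in CSCs. It rose in iCMs (log2 fold change 2.35 ± 0.30 SE, adjusted p = 1.44e-05) and in aCMs (log2 fold change 2.95 ± 0.32 SE, adjusted p = 4.90e-06), where 38.6% and 35.2% of all tested miRNAs were called higher. In turn, mmu-miR-99b-5p was at 14142, 8104 and 10840.0 CPM in iCMs and 1554 and 2241 CPM in aCMs, against 16202, 14294 and 14514 CPM in CSCs. It fell in aCMs (log2 fold change -2.98 ± 0.34 SE, adjusted p = 5.69e-06), where 33.4% of miRNAs were called lower, was higher in iCMs than in aCMs (log2 fold change 2.54 ± 0.33 SE, adjusted p = 2.99e-05), where 44.0% were called higher, and did not pass in iCMs vs CSCs (log2 fold change -0.44 ± 0.26 SE, adjusted p = 0.1595), although it was called lower with library totals (-0.66, edgeR adjusted p = 0.0369). For mmu-miR-100-5p the values were 391, 342 and 461 CPM in iCMs and 395 and 429 CPM in aCMs, against 593, 792 and 781 CPM in CSCs, and it was called lower in iCMs (log2 fold change -0.86 ± 0.28 SE, adjusted p = 0.0157), where 25.2% were, and in aCMs (log2 fold change -0.81 ± 0.32 SE, adjusted p = 0.0366). The aCM call was lost without iCMs 1, iCMs 2, aCMs 1, aCMs 2, CSCs 2 or CSCs 3, where the log2 fold change lay between -0.76 and -0.41, with DESeq2 (-0.67) and with its size factors (-0.47), and the iCM call without iCMs 2 (-0.73) or CSCs 3 (-0.80) and with no filter (-0.85). Both mmu-miR-9-3p and mmu-miR-124-3p stayed at or below 1.37 CPM in every library and were not tested.

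**Figure D5:**
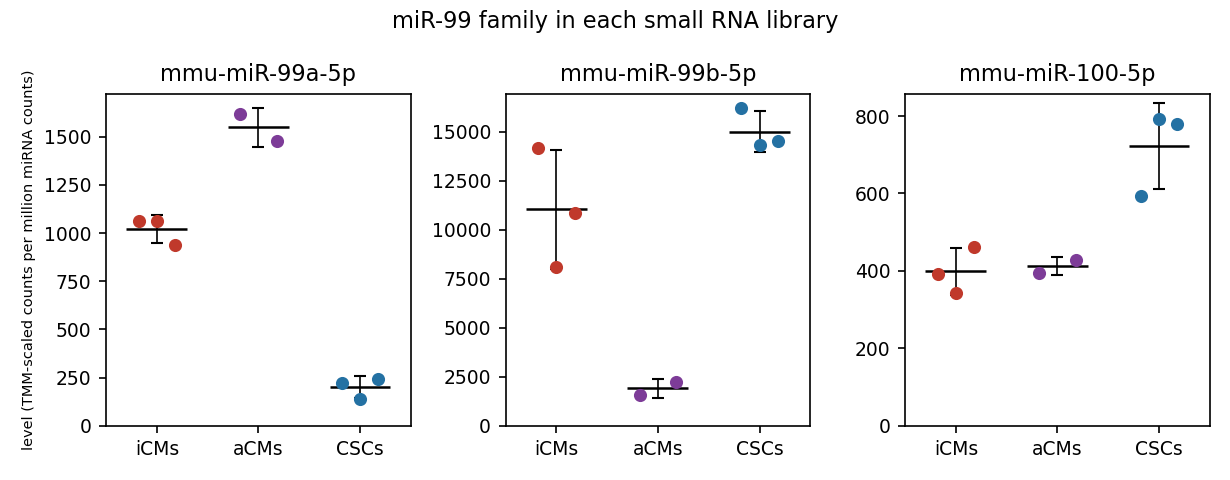
Level of mmu-miR-99a-5p, mmu-miR-99b-5p and mmu-miR-100-5p in CPM (y axis, a separate scale for each panel) in each small RNA library (points) of iCMs, aCMs and CSCs, with the group mean (line) and SD (bar). The miR-99a-5p level is lowest in CSCs, while miR-99b-5p and miR-100-5p are highest in CSCs.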

How the data were processed

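Total RNA was depleted of ribosomal RNA and sequenced as pairs of 100 bases, and the authors deposited estimated counts per gene from Strand NGS with Ensembl transcripts (mm10, submitters' processing notes), with no scaling for length or depth. For small RNA, the authors deposited raw counts per mature miRNA from iSMART with miRBase. The notes name DESeq, DESeq2 1.28.1 and R 4.0.2. Of the total RNA values, 51.4% were not whole and were rounded; 956 entries outside the annotation held 0.147% of counts. Depth is given in the report for total RNA and was 4089474 to 9776644 counts for small RNA. No 2 libraries were duplicates, with at most 0.433% of counts over 20 equal in total RNA.

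With R 4.3.3 and edgeR 4.0.16, low counts were dropped by filterByExpr (20254 genes and 718 of 1818 miRNAs kept), libraries scaled by TMM, and the robust quasi-likelihood test fitted to all 8 libraries of an assay, with Benjamini-Hochberg adjustment over all tested features. SE is the log2 fold change over the root of the F statistic, and 95% intervals take a normal error and cover these libraries only. Counting intervals and limits (3 counts) cover counting error only. Paralog ratios were tested by exact permutation over libraries (SciPy 1.17.1). No transcript lengths were used, so levels are not compared between genes.

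The members and lists were chosen with earlier results of these data known, and the promoter motifs and sex-linked genes after the values were seen. Values per library are given for called members and the Smarcd, Smarca2/4, Actl6, Dpf, Bcl11 and Ss18 groups, and other members by mean or count; from other lists at most 4 genes of smallest p were named, plus Kit and genes a sentence was about. Alternatives were DESeq2 1.42.0, its size factors, library totals, no filter, 50 counts in 2 libraries, a fit to the 2 groups of a comparison, a replicate block, leaving out each library, each call criterion alone and pseudocounts of 0.1 and 5 CPM. Steps were tested on simulated data. Promoters were in the RefSeq table for 28 of the 32 members, and the sequence of miR-124-3p was not used here.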

Additional observations from a re-analysis of the deposited data

How the results depend on the processing

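The 6 members called in iCMs vs CSCs and the 2 in iCMs vs aCMs were called under all 16 settings of the fit. In aCMs vs CSCs, 7 of 8 were, and Smarcd3 under 15. Of 1050 refitted member changes, 1006 kept their direction and their side of the call. Scaling mattered in the aCM comparisons, where library totals moved the median of all genes to -0.76 in aCMs vs CSCs and 0.89 in iCMs vs aCMs. Members called lower in aCMs vs CSCs were then 12, against 6691 of 20254 genes, and 6 with no filter, against 4682 of 31498. They were 2 to 4 with a library left out. With library totals, 4 members were called higher in iCMs vs aCMs, against 6686 of 20254 genes. With the same scaling, Smarca4 (0.11), Smarcd1 (0.19), Dpf2 (0.69), Smarcc2 (0.069) and Smarcal1 (0.017) in iCMs vs aCMs and Brd7 (-0.26) in aCMs vs CSCs changed sign. The adjusted p alone gave 14 members lower in iCMs vs CSCs, 12 lower in aCMs vs CSCs, and 5 higher and 9 lower in iCMs vs aCMs, since it drops the fold threshold.

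Other values also changed sign. In iCMs vs CSCs, Smarca2 was -0.0083 with no filter and -0.045 to 0.105 with a library left out, Ss18l1 was 0.029 with the stricter filter and -0.23 to 0.11 with a library left out, and Actl6a was -0.55 to 0.0083. In aCMs vs CSCs, Ss18l1 was -0.33 to 0.0069 with a library left out. In iCMs vs aCMs, Dpf2 was 0.15 with no filter, 0.15 with the replicate block and -0.029 to 0.032 with a library left out, Bcl11a was -0.017 to 0.42, miR-99a-5p (-0.60 with TMM) was 0.48 and miR-100-5p (-0.048 with TMM) was called higher at 1.06 with library totals, and miR-100-5p was 0.21 with no filter. Among the ratios, Smarca1/Smarca5 was -0.44 to 0.26 and Bcl7a/Bcl7b 0.089 with a pseudocount of 5 CPM and -0.25 to 0.12 in iCMs vs aCMs, and Bcl11a/Bcl11b was 0.55 with a pseudocount of 0.1 CPM and -0.67 to 0.17 in iCMs vs CSCs and -0.0036 to 0.80 in aCMs vs CSCs. The cause was not tested. Same-numbered iCM and CSC libraries of total RNA correlated at 0.03, 0.15 and 0.07, and differently numbered ones at -0.115 to 0.067. In small RNA these were 0.17, 0.04 and 0.20, and -0.27 to 0.059. The main fit did not pair libraries by number, and these values do not settle whether they are paired. The replicate block gave 5 members higher and 1 lower in iCMs vs CSCs. It called Smarca5 lower in aCMs vs CSCs (-1.34), and lost the miR-100-5p call there (-0.72, edgeR adjusted p = 0.064). Shares could not be scaled for length. The aCM libraries are the shallowest, so 0 counts there allow up to 0.394 CPM.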
